A study of Mus musculus with 8 samples.

Results

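Small intestine from mice given dexamethasone together with DBZ was compared with small intestine from mice given dexamethasone alone. The members of the comparison were the 2 arrays labelled with both drugs, called the combination arrays here, and the 2 arrays labelled with dexamethasone alone, which makes 4 of the 8 arrays of the series. All were chosen by their labels and not by a measured value. The mice were 6-week-old C57/Black6 females, and every mouse of both groups received dexamethasone at 15 mg/kg, injected into the peritoneum once a day over 5 days. The combination mice also received DBZ at 10 micromol/kg (the sample protocols write this dose in microM per kg). The design text gives 2 mice per group, and no segment of the small intestine is named for any sample. The tissue was frozen unprocessed, so that it holds epithelium, muscle, blood and any attached fat. The series title concerns gamma-secretase inhibitors and glucocorticoid resistance in T-cell leukaemia, and the design text places these mice in a study of how both drugs interact. The comparison sets mice given both drugs beside mice given dexamethasone alone, and the source of a difference between the groups was not tested.

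DBZ blocks gamma-secretase, the membrane protease that cuts the Notch receptors and frees the domain that enters the nucleus and works with Rbpj to turn on genes such as Hes1. In intestinal crypts that signal keeps stem and progenitor cells dividing and holds back Atoh1, the factor that commits cells to goblet, Paneth and enteroendocrine fates. Dexamethasone is a synthetic glucocorticoid that acts through the receptor Nr3c1. RNA was hybridised to Affymetrix arrays, and a value below is the array signal after all arrays were set to one trimmed mean of 250, so that it has no unit of its own. A difference is the combination minus dexamethasone on the log2 scale of signal plus 11.99, given with the standard error of the fit, and it understates the change of dim genes. "Rose" and "fell" are kept for probe sets past an adjusted p of 0.05 in limma over 13599 tested probe sets, and other values are given as measured. Folds are ratios of the mean signals of 2 arrays per group.

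The 4 arrays carried the marks of small intestinal tissue: Vil1, a brush border protein, lay between 5603 and 7813 and Lct, the lactase of enterocytes, between 5124 and 7631. Their deposited trimmed means were the same, 250.1, and the ratio of 3' to 5' signal for Gapdh, a sign of RNA quality, was 1.18 and 1.15 in the dexamethasone arrays and 0.905 and 1.22 in the combination arrays. Rank correlations were 0.9594 between the dexamethasone arrays, 0.9557 between the combination arrays and 0.9487 to 0.959 across groups, so an array was about as close to the other group as to its partner. The first dexamethasone array stood apart in genes known from the colon. Car1, a carbonic anhydrase of colonic epithelium, read 7427 there against 39.9 in the second dexamethasone array and 14.4 and 1.44 in the combination arrays. Results that lean on that array are given with and without it. With 2 arrays against 2, no exact permutation test over samples can give a 2-sided p under 0.333, and the p-values measure only the spread between these arrays.

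Of the 13599 probe sets tested, 11 rose (0.0809%) and 6 fell (0.0441%) in the combination arrays against the dexamethasone arrays. Those that rose belonged to Ugt2a3, Cyp2b10, Aadac, a group of glutathione transferases, Pdk4, Gip, a histone and haemoglobins. Those that fell were Scd1, Lpl (by 2 probe sets), Mptx1, Neu1 and Prss23. The smallest adjusted p was 0.004888, and 1450 probe sets had an unadjusted p under 0.05, of which 554 were higher and 896 lower in the combination. All 17 calls were lost when either combination array was left out (lowest adjusted p 0.07013 without the first and 0.08594 without the second) and when the fit used no intensity trend (0.0694). Without any filter on low signals 2 haemoglobin probe sets rose and 0 fell, with 1837 probe sets then at an unadjusted p under 0.05. In a fit over all 7 distinct arrays of the series 3 rose and 1 fell. Leaving out a dexamethasone array moved the counts the other way, to 26 higher and 23 lower without the first and 98 higher and 220 lower without the second.

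**Figure D1:**
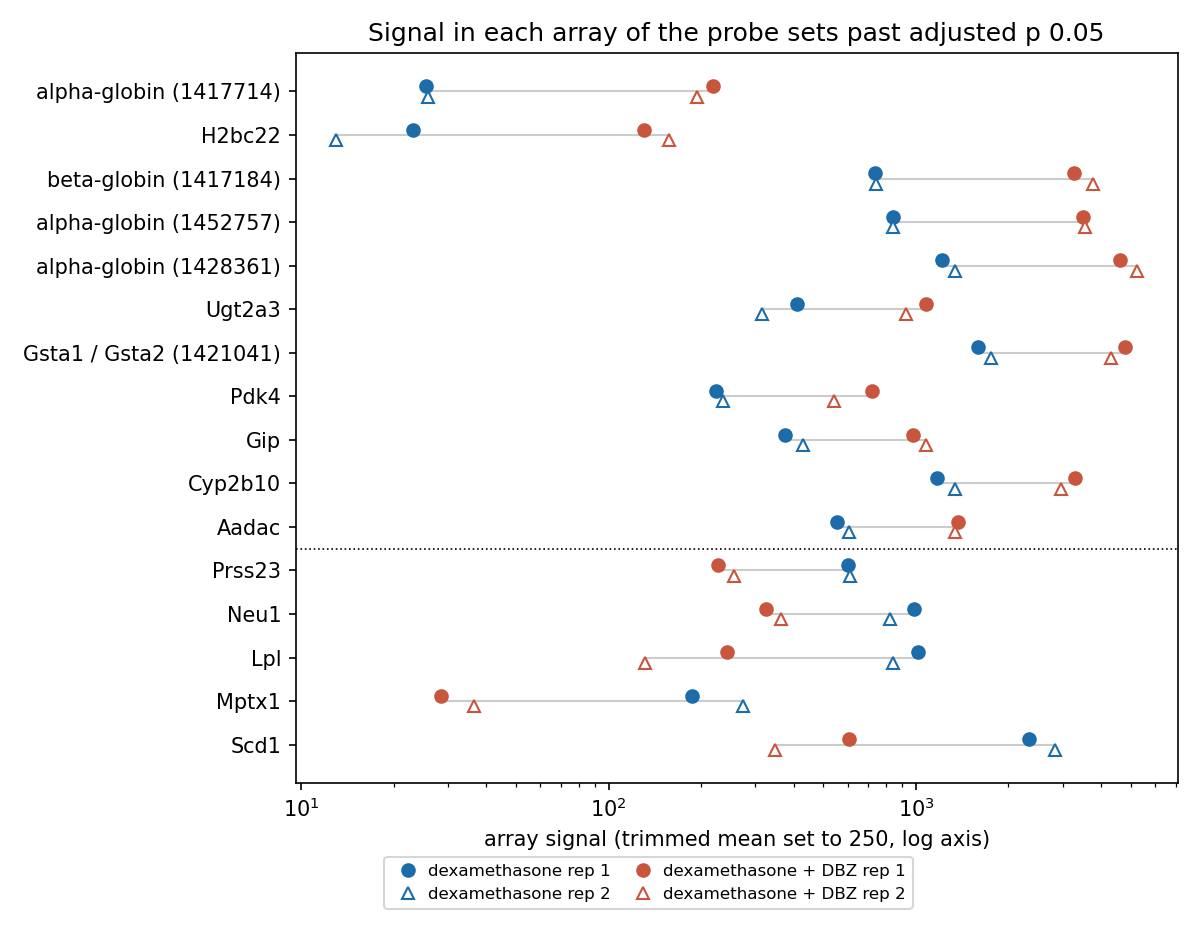
Signal on a log axis in each of the 4 arrays for the probe sets past an adjusted p of 0.05, with the second Lpl probe set left out; filled circles are replicate 1 and open triangles replicate 2, blue for dexamethasone and red for the combination, and the grey line spans the 4 values. Above the dotted line both combination arrays lie to the right of both dexamethasone arrays, and below it both lie to the left, for instance 607 and 349 against 2327 and 2845 for Scd1.

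Among the enzymes that make foreign compounds soluble, Ugt2a3, a transferase that attaches glucuronic acid, read 409 and 315 with dexamethasone and 1081 and 929 with the combination. It rose 2.78-fold, by 1.45 ± 0.18 on the log2 scale (adjusted p = 0.03449). Cyp2b10, the cytochrome P450 best known as a target of the xenobiotic receptor Nr1i3, read 1173 and 1344 against 3287 and 2963. It rose by 1.31 ± 0.16 (adjusted p = 0.03617), while its other probe sets differed by 1.12 and 1.75 without passing (adjusted p = 0.07772 and 0.08577). Without the first dexamethasone array this call was lost. Aadac, a lipid and drug esterase of the endoplasmic reticulum, read 554 and 606 against 1369.7 and 1337 and rose 2.33-fold (adjusted p = 0.03449). A probe set that the platform table pairs with Gsta1, Gsta2 and a predicted gene at once, so that these glutathione transferases cannot be told apart, read 1589 and 1754 against 4782 and 4320.2 and rose by 1.44 ± 0.17 (adjusted p = 0.03449), a call that was also lost without the first dexamethasone array. In each of these 4 the lowest combination value was well above the highest dexamethasone value. That gap goes with passing the threshold and is no separate support.

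Pdk4, the kinase that shuts off pyruvate dehydrogenase and is induced by fasting and glucocorticoids, read 224 and 236 with dexamethasone and 719 and 543 with the combination, and rose 2.75-fold (adjusted p = 0.04531). Gip, the incretin made by K cells of the upper small intestine, read 374 and 429 against 979.8 and 1076 and rose by 1.33 ± 0.16 (adjusted p = 0.03449). H2bc22, a histone H2B gene measured by a probe set that may bind its near-identical relatives, read 23.01 and 13.0 against 130.3 and 158 (difference 2.39 ± 0.30, adjusted p = 0.03449). Its dexamethasone values lay under the filter on low signals, so that it was tested only through the arrays in which it was high, had to differ, and has a fold of 8.01 that rests on dim signals.

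The remaining 4 probe sets that rose are paired with haemoglobin genes, 3 of them with Hba-a1 and Hba-a2 together and 1 with several beta-globins. The beta-globin probe set read 733 and 743 with dexamethasone and 3269 and 3768 with the combination (2.23 ± 0.16, adjusted p = 0.004888). The alpha-globin probe sets differed by 1.94, 2.05 and 2.53, the last at 25.5 and 25.9 against 218 and 194 and so, like H2bc22, tested only through its high arrays. Probe sets paired with Hba-a1 alone or Hba-a2 alone were dim, with no value above 29.6 in any of the 4 arrays. Of the 17 genes on the red cell list 10 had a probe set and 1 was tested, Bpgm, at 449.9 and 508 against 573 and 565. The erythroid genes Alas2, Slc4a1, Epb42 and Klf1 read between 0.699 and 36.8 in the 4 arrays and were too dim to test. The summed signal of the 10 was 556 and 636 with dexamethasone and 653 and 723 with the combination. Most of that sum came from Bpgm, and the haemoglobin probe sets that rose are not in it. The part of blood left in the tissue in the haemoglobin rises was not tested.

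Scd1, the desaturase that makes monounsaturated fatty acids, had the largest fall of a named gene on the log2 scale used here, though not as a ratio of means: 2327 and 2845 with dexamethasone and 607 and 349 with the combination, a difference of -2.45 ± 0.25 (adjusted p = 0.0265). A second Scd1 probe set differed by -1.69 and did not pass (adjusted p = 0.1832). Lpl, the lipase that frees fatty acids from circulating lipoproteins, fell by both of its probe sets, from 1018 and 845 to 242 and 131 in the brighter one (-2.30 ± 0.26, adjusted p = 0.03449) with -2.01 ± 0.24 in the other. Mptx1, a pentraxin known from Paneth cells, read 186 and 275 against 28.4 and 36.6 and was 7.09-fold lower (adjusted p = 0.03449), with combination values under the filter, so that it was tested only through the dexamethasone arrays. Neu1, the lysosomal sialidase, read 987 and 821 against 325 and 363 and fell by 1.36 on the log2 scale (adjusted p = 0.03449). Prss23, a secreted serine protease, read 599 and 612 against 227 and 255 (-1.29 ± 0.16, adjusted p = 0.03449), with a second probe set at -1.01 that did not pass (adjusted p = 0.0832). In all 5 genes both combination arrays lay below both dexamethasone arrays, which goes with passing the threshold and is no separate support.

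No gene of the Notch pathway passed the threshold in limma. At an unadjusted p under 0.05 there were 0 of 3 receptors, 0 of 2 ligands, 0 of 4 protease subunits, 1 of 21 modifiers and nuclear partners and 0 of 15 target genes (4.35% of all genes were higher and 7.34% lower at that p). That 1 was Numb, an inhibitor of Notch receptors, at 999 and 1099 against 1349 and 1405 (0.39 ± 0.15, adjusted p = 0.4292). Of the Notch, lineage, cell cycle and drug response genes listed by name for this comparison, 41 were bright enough to test. Hes5, Hey1, Jag1, Gfi1, Neurog3, Ascl2 and Dclk1 were too dim, and for Olfm4 and Muc2 no probe set is named in the table used here. Hes1, the transcriptional repressor most used as a readout of Notch, read 123 and 155 with dexamethasone and 71.0 and 118 with the combination. Both combination values were below both dexamethasone values, yet the difference of -0.53 ± 0.27 did not pass (adjusted p = 0.5174). Other Notch targets in the crypt were of like size: Sox9, a factor of stem and Paneth cells, at -0.68 ± 0.32, and the cyclin Ccnd1 at -0.47 ± 0.24. Nrarp, a target that feeds back on the pathway, overlapped between the groups at 234 and 337 against 236 and 302. Of 15 tested genes on the target list 11 were lower, with a median of -0.11 against -0.08 over all 8055 genes tested. That median was -0.24 without the first dexamethasone array, -0.14 without the second, -0.07 without the first combination array and -0.23 without the second.

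The receptors, ligands and the protease gave no gene at an unadjusted p under 0.05. Notch1 (-0.11), Notch2 (-0.36) and Notch3 (-0.01) had standard errors of 0.24 to 0.29, with both Notch2 combination values below both dexamethasone values, and a second Notch1 probe set had the opposite sign (0.32). The ligands were Dll1, at 214 and 295 against 222 and 428, and Dll4, at 54.9 and 49.1 against 57.1 and 66.8, with -0.03 from a second Dll4 probe set. The 4 measured subunits of gamma-secretase, the target of DBZ, had differences from -0.14 for Ncstn, the substrate receptor, to 0.15 for Psenen, with the catalytic Psen2 at -0.11 and Aph1a at 0.11. All 4 overlapped between the groups, although 2 dimmer Aph1a probe sets were lower in the combination (-0.42 and -0.28). Rbpj, the DNA-binding partner of cut Notch, differed by -0.07 ± 0.21, or 0.21 in another probe set. DBZ acts on the activity of the protease, which these levels do not measure.

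**Figure D2:**
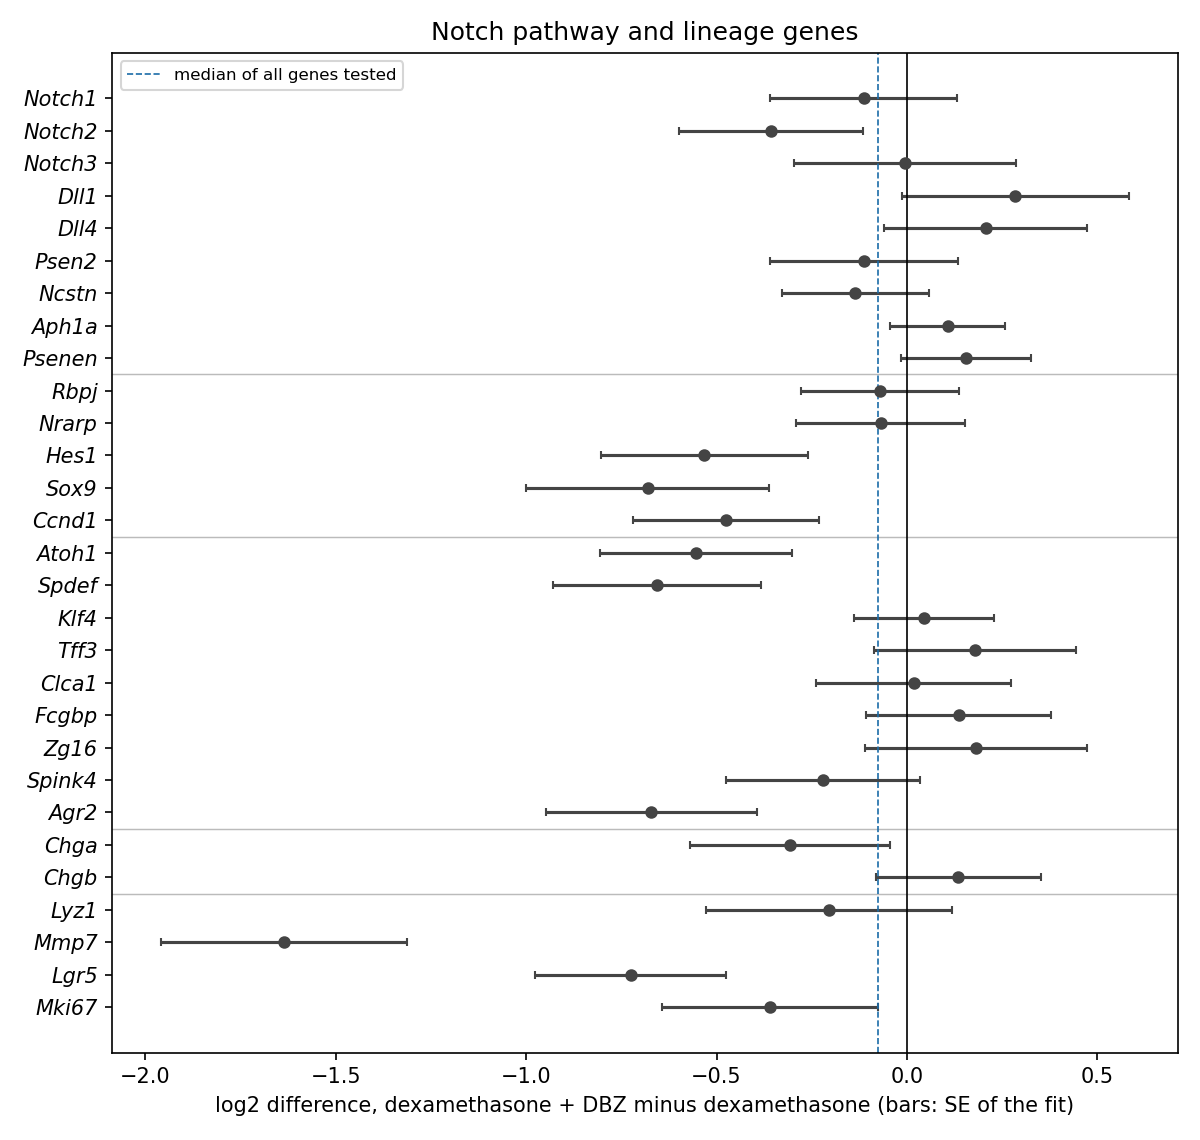
Log2 difference of the combination minus dexamethasone for 29 Notch pathway, secretory, Paneth, stem and proliferation genes, with the standard error of the fit as bars (2 arrays per group); the dashed line is the median of all genes tested, -0.08. Hes1, Sox9, Ccnd1, Atoh1, Spdef, Agr2, Lgr5 and Mmp7 sit to the left of zero, the major goblet products Tff3, Clca1, Fcgbp and Zg16 sit near it, and none of the 29 passed the threshold.

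No factor that drives secretory fates passed the threshold, and 4 of 15 were lower at an unadjusted p under 0.05 (7.34% of all genes were). Atoh1, which commits cells to those fates, read 265 and 372 with dexamethasone and 168 and 262 with the combination (-0.55 ± 0.25, adjusted p = 0.4846). Spdef, which matures goblet and Paneth cells, was at -0.66 ± 0.27, and Foxa1, a pioneer factor of secretory cells, read 589.9 and 343 against 174 and 254 (-1.06 ± 0.28). Of 15 tested secretory factors 10 were lower (4844 of all 8055 genes were) and in 8 both combination arrays lay under both dexamethasone arrays, 28.7% of all genes doing so in that direction and 16.3% in the other. Klf4, a differentiation factor of goblet cells, overlapped at 2578 and 2958 against 3168 and 2561, as did Klf5, its counterpart in dividing crypt cells (-0.15 ± 0.18).

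Goblet cell genes were not uniform. The abundant secreted products overlapped between groups: Tff3, the trefoil peptide, at 7118 and 8592 against 7075 and 11082, Fcgbp at 0.14 ± 0.24, Clca1 at 0.02 ± 0.26, Spink4 at -0.22 ± 0.25 and Zg16 at 0.18 ± 0.29. A second, dimmer Clca1 probe set was lower in both combination arrays (-0.42). Agr2, the disulphide isomerase that folds mucins, read 2408 and 1856 against 978 and 1789.5 (-0.67 ± 0.28, adjusted p = 0.4508), and Creb3l1, a membrane-bound factor of secretory cells, was at -0.77 ± 0.27. Of 29 goblet genes tested 23 were lower, 9 of them at an unadjusted p under 0.05 (7.34% of all genes were lower at that p) and 0 past the threshold, with a median of -0.29. The second combination array ran higher than the first in these genes, and without it the median was -0.51, without the first combination array -0.26. Tspan1, the list's largest difference, rested on the first dexamethasone array, at 2058 and 283 against 112 and 151. In bulk tissue, fewer cells of a type and less RNA per cell cannot be told apart.

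Of 13 tested genes of Paneth cells, the secretory cells at the crypt base, 11 were lower, with a median of -0.62. The 1 call was Mptx1 (0.0441% of all probe sets fell), which was tested only through the dexamethasone arrays, as given above. Mmp7, the protease that activates their defensins, read 564 and 849.6 with dexamethasone and 149 and 308 with the combination (-1.64 ± 0.32, adjusted p = 0.1647). Pla2g2a, a secreted phospholipase, read 142 and 156 against 62.1 and 90.4 (-0.88 ± 0.24). The most abundant product, Lyz1, overlapped at 9284 and 10528 against 6106 and 12049. Much of the list's shift sat in the first combination array: its median was -0.34 without that array and -1.03 without the second. Nupr1 again followed the first dexamethasone array, at 1897 against 362 in its partner.

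Among enteroendocrine genes, Gip was alone in passing. Gch1, the enzyme that makes the cofactor for serotonin synthesis, read 292 and 269 against 564 and 460.1 (0.84 ± 0.17, adjusted p = 0.1831), and Cck, a hormone of the upper gut, was dim at 37.4 and 36.1 against 52.6 and 79.6. The hormones of L cells, which are denser in the distal gut, lay the other way: Pyy read 289 and 366 against 179 and 205 (-0.73 ± 0.19) and Gcg 238 and 238 against 144 and 200.4. The granule proteins Chga (-0.31 ± 0.26) and Chgb (0.13 ± 0.22) overlapped. Over 24 genes the median was -0.17, 0.03 without the first dexamethasone array and 0.10 without the second combination array. Of the 5 tuft cell genes tested Ltc4s, the leukotriene C4 synthase, was at 0.87 ± 0.21 and Cd24a, a surface antigen, at -0.77 ± 0.24, both without overlap, while Alox5ap (-0.62), Fyb (-0.03) and Nrep (0.08) overlapped. None passed, and the median was -0.03.

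Genes of dividing crypt cells were lower as a group, without any single gene passing. All 43 tested genes of mitosis had a negative difference, with a median of -0.59, in 32 of them both combination arrays lay below both dexamethasone arrays, and 19 had an unadjusted p under 0.05 (over all genes, 4844 of 8055 were lower, 28.7% without overlap and 7.34% at that p). For DNA replication 39 of 41 were lower, with a median of -0.45, 26 without overlap and 12 at that p. The size depended on the combination array: without the first, which had the lowest levels, the medians were -0.32 and -0.18, and without the second -0.85 and -0.67. Hmgb2, a chromatin protein of dividing cells, read 297 and 459.8 with dexamethasone and 118 and 174 with the combination (-1.30 ± 0.26, adjusted p = 0.1712). Top2a, the topoisomerase that untangles chromosomes, read 449 and 538 against 163 and 341 (-1.02 ± 0.30, adjusted p = 0.3237). Kif2c, a kinesin that depolymerises spindle microtubules, had tight replicates at 95.1 and 89.3 against 45.9 and 45.4. Mki67, the common proliferation marker, overlapped at 516 and 659 against 327 and 624.

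Among the replication genes the smallest p belonged to Uhrf1, which recruits the maintenance DNA methyltransferase, at 162 and 174 against 63.2 and 73.4 (-1.17 ± 0.22, adjusted p = 0.1265), and Lig1, the ligase that joins Okazaki fragments, at 199.8 and 244 against 91.1 and 112 (-1.04 ± 0.21, adjusted p = 0.1797). The helicase subunit Mcm4 was at -1.06 ± 0.25 and the repressor E2f8 at -1.19 ± 0.32. Both combination arrays lay below both dexamethasone arrays in these 4. The D-type cyclins that start the cycle were lower by less and did not pass: Ccnd1 -0.47, Ccnd2 -0.24 and Ccnd3 -0.56. None of the 6 inhibitors that stop it passed, with Cdkn1a at 2035 and 2638 against 2382 and 2455 (-0.18 in its other probe set), Cdkn1b at -0.32 ± 0.17, Cdkn1c at -0.69 ± 0.26, Cdkn2c at -0.44 ± 0.20, and Cdkn2b and Cdkn2d at 0.03 and -0.03.

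**Figure D3:**
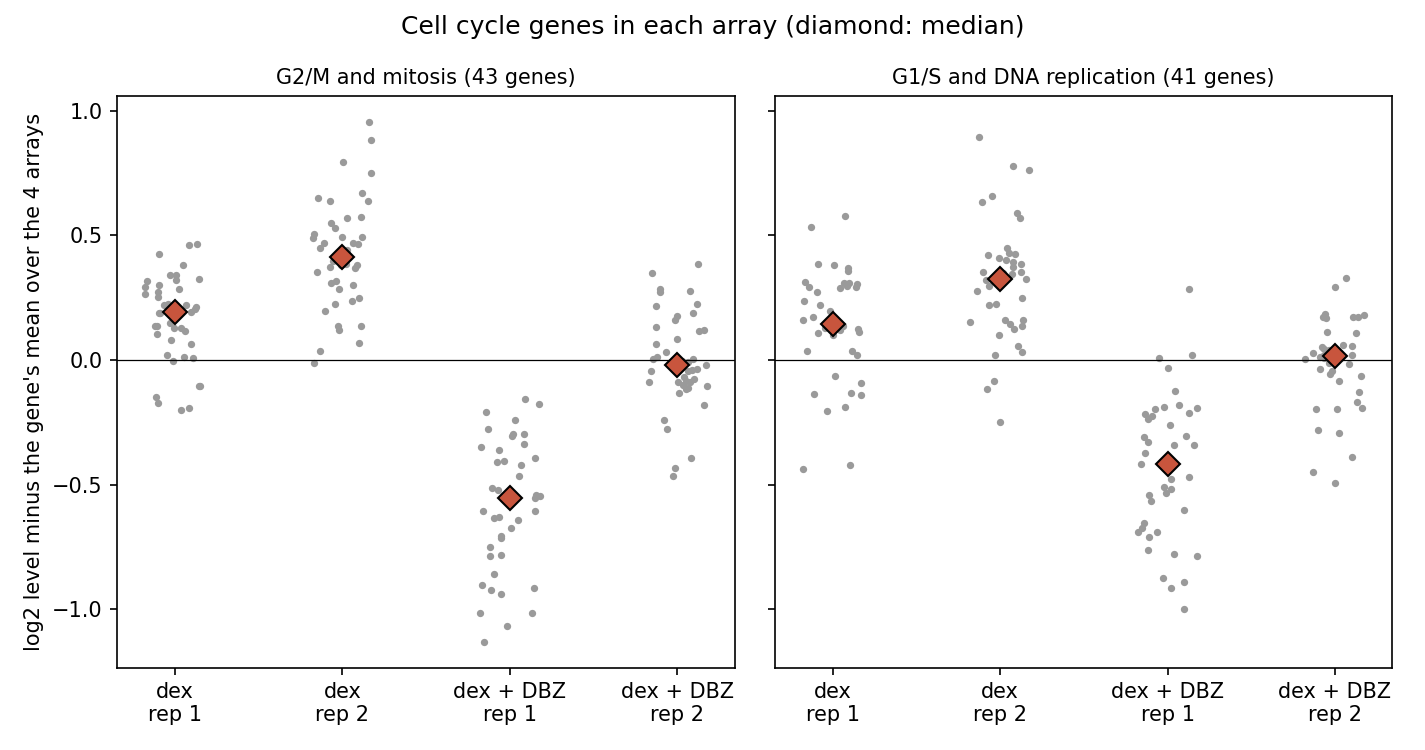
Log2 level of each tested mitosis gene (left, 43) and replication gene (right, 41) in each array, minus that gene's mean over the 4 arrays; grey points are genes and the diamond is the median. The medians for mitosis are 0.19 and 0.41 in the dexamethasone arrays and -0.55 and -0.02 in the combination arrays, so the first combination array is the lowest.

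Upstream stretches are shown for Hmgb2 and Top2a, the mitosis genes with the smallest p whose first listed promoter holds both letters that mark cell cycle promoters: CCAAT, bound by the factor NF-Y, and TTTGAA, the cell cycle homology region. Each is the 250 bases before the RefSeq start, 5′ to 3′ on the gene's strand in GRCm38.p6, with CCAAT and TTTGAA in capitals on either strand. Hmgb2 is at chr8:57511593-57511842 on the plus strand and holds CCAAT 4 times and TTTGAA 2 times.
Hmgb2: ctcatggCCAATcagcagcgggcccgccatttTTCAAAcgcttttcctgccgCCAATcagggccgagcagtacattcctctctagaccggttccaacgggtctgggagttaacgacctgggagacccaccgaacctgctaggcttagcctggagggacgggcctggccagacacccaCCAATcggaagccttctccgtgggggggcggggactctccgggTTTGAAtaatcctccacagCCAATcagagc
Top2a is at chr11:99024190-99024439 on the minus strand and holds CCAAT 6 times and TTTGAA 2 times.
Top2a: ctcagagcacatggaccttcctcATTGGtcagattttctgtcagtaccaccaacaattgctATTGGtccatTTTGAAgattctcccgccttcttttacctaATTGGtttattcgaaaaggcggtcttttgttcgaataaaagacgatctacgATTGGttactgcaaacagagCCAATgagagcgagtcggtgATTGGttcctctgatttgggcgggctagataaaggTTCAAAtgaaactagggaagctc
Of the 43 tested mitosis genes 37 had a listed promoter, and CCAAT stood in 28 (75.7%) and TTTGAA in 14 (37.8%) of those stretches. For the replication genes it was 21 of 35 (60%) and 5 of 35 (14.3%), and over all 27025 promoters of this length 34.5% and 16.3%. The letters describe the stretches and were not tested as sites.

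Stem cell genes lay on the same side and none passed. Lgr5, the receptor that marks crypt base stem cells, read 85.7 and 108 with dexamethasone and 54.2 and 52.7 with the combination (-0.72 ± 0.25, adjusted p = 0.3866). Its combination values were close together and below both dexamethasone values. Slc12a2, the chloride cotransporter of crypt cells, read 1614 and 1137 against 565 and 935 (-0.89 ± 0.26), and Myb, a factor needed for crypt proliferation, 556 and 598 against 185 and 449. Of 19 tested stem cell genes 17 were lower, with a median of -0.36 and -0.29 without the first dexamethasone array. Prom1 and Aqp4, with the largest differences of the list beside these, followed that array, Prom1 at 2462 and 429 against 273 and 392. Among 17 Wnt targets 13 were lower, with a median of -0.28. It was -0.21 without the first dexamethasone array, -0.45 without the second, -0.22 without the first combination array and -0.49 without the second.

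The ion transport list was close to all genes in its share of lower members. Of 33 genes 21 were lower (4844 of all 8055 were), 12 of them at an unadjusted p under 0.05 (7.34% of all genes) with a median of -0.19, and 12 were higher, 0 at that p. Its lowest value was that of Car1, which rests on the first dexamethasone array. Cftr, the chloride channel, read 492 and 533 against 304 and 320.4 (-0.69 ± 0.16, adjusted p = 0.2153), with close replicates. Kcnq1, a potassium channel that supports chloride secretion, was at -1.10 ± 0.30, and Fxyd3, a regulator of the sodium pump, at -0.62 ± 0.18. Cldn2, the pore-forming claudin of crypts, is not on this list and read 422 and 537 against 151 and 293 (-1.13 ± 0.29, adjusted p = 0.2543). Tight junction and keratin genes as a list did not share that direction, with 19 of 30 higher, 11 lower and a median of 0.05.

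Genes of the mature villus lay on the other side. Of 31 absorptive enterocyte genes tested 27 were higher, in 21 both combination arrays were above both dexamethasone arrays (16.3% of all genes were) and 11 had an unadjusted p under 0.05 (4.35% of all genes were higher at that p), while 0 passed the threshold. The median was 0.34, and 0.22 without the first dexamethasone array. Apob, the structural protein of chylomicrons, read 1323 and 2640.0 with dexamethasone and 6112 and 5773 with the combination (1.66 ± 0.30, adjusted p = 0.1239). Treh, the brush border trehalase, read 1531 and 1715 against 3519 and 2662, and Ada, the adenosine deaminase of villus tips, 3897 and 4162 against 6248 and 7289.7. Mep1a, a brush border protease, went against the list at 3441 and 4515 against 2579 and 2874. In the chylomicron list 25 of 28 were higher with a median of 0.40 (0.26 without the first dexamethasone array), among them Dgat2, which makes triglyceride, at 0.71 ± 0.16, and Slc27a2, a fatty acid transporter, at 0.76 ± 0.19. Cd36, the fatty acid receptor of the brush border, read 352 and 282 against 1156 and 450.4, unequal in the combination arrays.

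Drug-handling genes beyond those past the threshold were mostly higher. Of 47 phase I genes tested 35 were higher, 21 of them at an unadjusted p under 0.05 (4.35% of all genes were higher at that p), 1 past the threshold (Cyp2b10), and the median was 0.50. Cyp3a11, the main drug oxidase of mouse enterocytes, read 2294 and 3169 against 5929 and 6192 (1.16 ± 0.21, adjusted p = 0.1239). Cyp2j6 read 658 and 778 against 3242 and 1881 (1.77 ± 0.25, adjusted p = 0.06815). Cyp2c29 had the largest positive difference of the list, 2.85 ± 0.52, from dim dexamethasone signals of 15.1 and 8.22 to 294 and 81.2. Those dexamethasone signals lay under the filter on low signals, so that Cyp2c29 was tested only through the combination arrays and had to differ. It is among the 21 counted above. Cyp2c55 went as far the other way (-2.86 ± 1.33) through the first dexamethasone array. Among the conjugating enzymes Gstm3 read 532 and 405 against 1257 and 990.2 (adjusted p = 0.0832). The receptors that switch such genes on were also higher, Nr1i3 (CAR) at 226 and 225 against 358 and 406 and Nr1i2 (PXR) at 182 and 194 against 338 and 282, neither past the threshold.

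**Figure D4:**
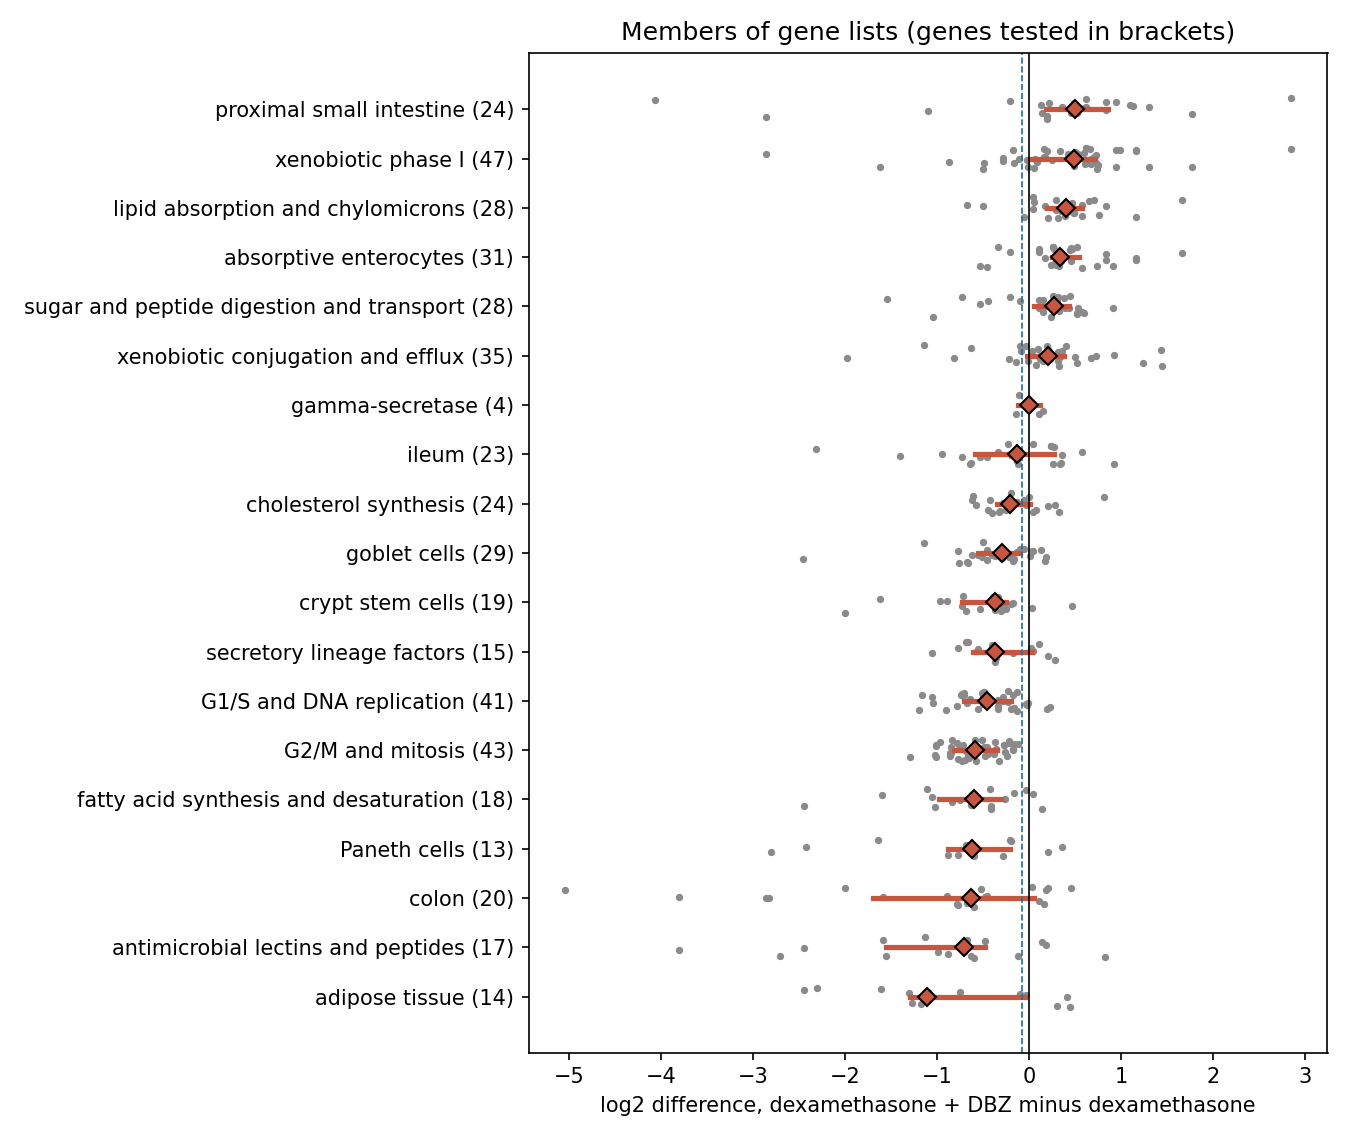
Log2 difference of each tested member (grey points) of 19 gene lists, with the quartiles (red bar) and the median (red diamond); the dashed line is the median of all genes tested, -0.08, and points are spread up and down for visibility only. The medians run from 0.50 for genes of the proximal small intestine to -1.11 for adipose tissue genes, and the 43 mitosis genes are all below zero.

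Genes known from the proximal small intestine were higher in the combination for 20 of 24 tested, 1 of them past the threshold (Cyp2b10), with a median of 0.50 that was 0.47 without the first dexamethasone array. Gata4, the factor that sets jejunal against ileal identity, read 222 and 219.8 with dexamethasone and 353 and 338 with the combination (0.62 ± 0.16, adjusted p = 0.2722), and its second probe set was at 0.79. Bco1, which splits carotene into retinal, read 103 and 122 against 572 and 298 (1.78 ± 0.29, adjusted p = 0.09836). Rdh7, Adh1 and Rbp2, which handle retinol further on, were at 1.09, 0.95 and 0.83, and Slc46a1, the folate carrier of the upper gut, read 277 and 246 against 837 and 409. S100g, the duodenal calcium carrier, went against the list at 685 and 61.4 against 1.33 and 1.65. Its first dexamethasone array was 11.2-fold above the second. Its combination values lay under the filter on low signals, so that it was tested only through the dexamethasone arrays.

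The bile acid handling list was split, with 7 of 14 higher and 7 lower and a median of 0.04. On each side 5 had an unadjusted p under 0.05 (4.35% of all genes were higher and 7.34% lower at that p). Cyp3a11 and Nr1i2, described above, and Abcg8, which exports sterols (0.81 ± 0.18), were among the higher ones. Fabp6, the ileal bile acid binding protein, read 3324 and 10013 with dexamethasone and 1189.8 and 1116 with the combination (-2.31 ± 0.43, adjusted p = 0.1265). The second dexamethasone array was 3.01-fold above the first, and the combination arrays were nearly equal and below both. Slc10a2, the sodium-dependent bile acid importer, read 96.9 and 149.6 against 73.9 and 17.4, Slc51a, a subunit of the exporter, 1569 and 2404 against 1142 and 1367, and Nr1h4, the bile acid receptor FXR, 375 and 374 against 199.9 and 279. These 4 were lower in both combination arrays. The rest of the ileum list was mixed. Suox (-0.95), Pyy (-0.73), Mep1a (-0.53) and Gcg (-0.46) were also lower in both combination arrays. Slc34a2, a phosphate carrier, was at 0.93 ± 0.26 and Slc6a20a at 0.58 ± 0.23, while Amn, Clec2h, Cubn, Enpep, Bcl2l15, Lgals3 and Muc3 were between 0.24 and 0.36. Tmigd1 was at -0.34, and Fam151a, Slc5a8, Osr2, Guca2a and Nts were between -0.23 and 0.05. At an unadjusted p under 0.05, 7 of the list were lower and 2 higher (7.34% and 4.35% of all genes). Without overlap, 8 of the 23 tested were lower and 4 higher, near the 28.7% and 16.3% of all genes. Over 23 genes the median was -0.13, with 13 lower and 10 higher, and it turned to 0.13 without the second dexamethasone array or without the first combination array. The segment sampled is not labelled, and the part of gut position in these values and in the villus and drug-handling values above was not tested.

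**Figure D5:**
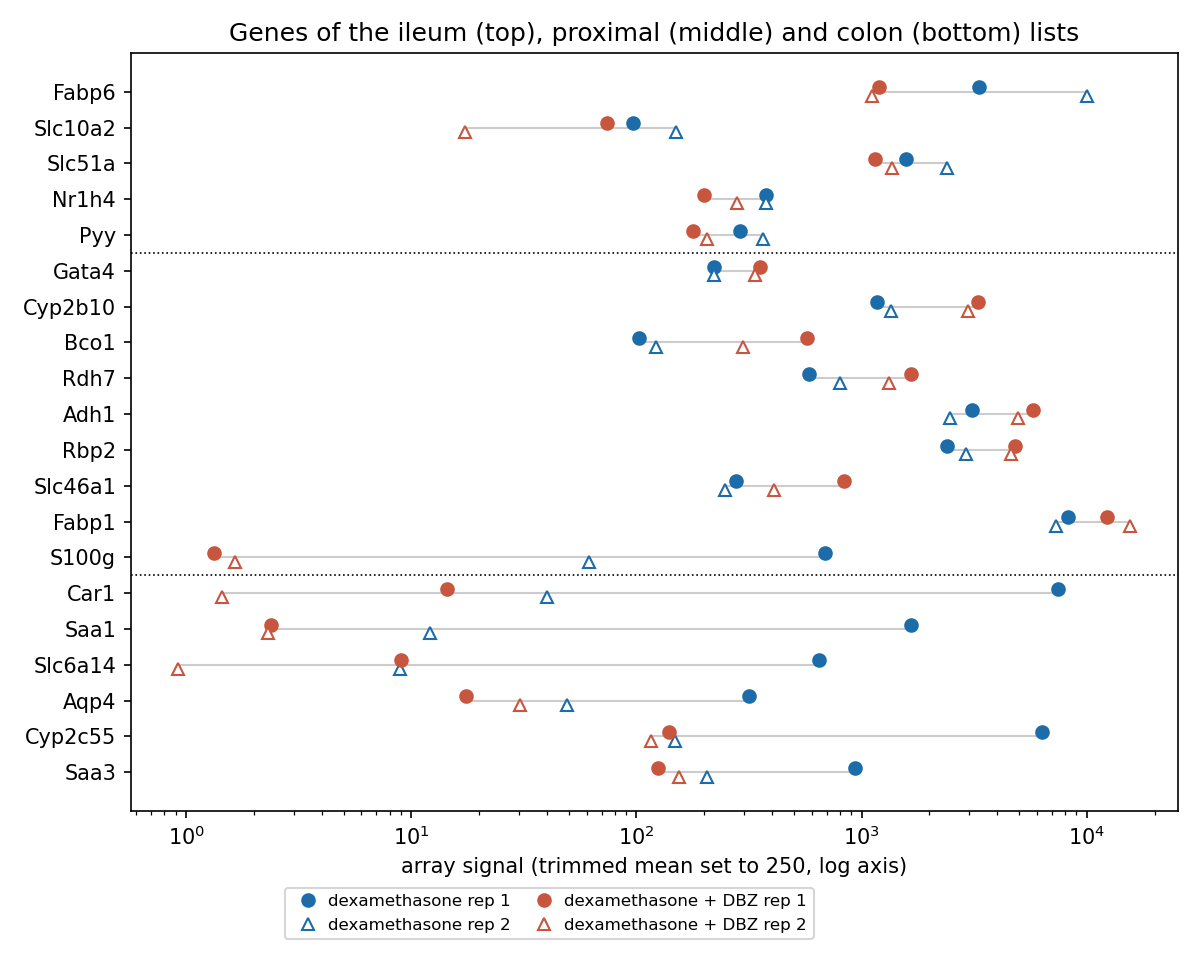
Signal on a log axis in each array for 5 genes of the ileum list (top), 9 of the proximal list (middle) and 6 of the colon list (bottom); symbols as in the plot of called genes, filled circles for replicate 1 and open triangles for replicate 2. The colon genes are high in the first dexamethasone array only, for example Cyp2c55 at 6296 against 149, 139 and 116, whereas Fabp6 is high in both dexamethasone arrays.

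Colon genes showed chiefly that one array. Car1, Saa1, Slc6a14, Cyp2c55, Aqp4 and Saa3 were between 4.53 and 186 times higher in the first dexamethasone array than in the second, and their differences ran from -5.04 to -1.59 with standard errors of 0.56 to 1.81. Mettl7b, Car4, Lypd8, Pigr, Slc26a3, Ggh and Tgm3 were also highest in that array, by up to 2.4-fold over its partner. Cdx1, a factor of distal identity, was lower in both combination arrays (548 and 509 against 322 and 414), while Cldn4 was higher (0.46 ± 0.17) and Cdx2, Krt8, Krt19, Mgst1 and Fxyd4 were between 0.04 and 0.21. Of 20 tested genes 14 were lower, none past the threshold, and the median of -0.63 was -0.31 without the first dexamethasone array and -1.02 without the second.

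The fall of Scd1 had company among genes that build fatty acids, a list put together after the values were seen and so given as a description. Fasn, the fatty acid synthase, read 446 and 509 with dexamethasone and 197 and 233 with the combination (-1.11 ± 0.17, adjusted p = 0.0832). Acly, which supplies its acetyl-CoA, read 612 and 611 against 329 and 346 (-0.83 ± 0.15), and Scd2 read 693 and 539 against 243 and 154 (-1.60 ± 0.24, adjusted p = 0.07772). Aacs, Fads2, Elovl5 and Elovl1, which activate, desaturate and elongate, were at -1.02, -1.05, -0.63 and -0.58. Of 18 tested 16 were lower with a median of -0.60, and of -0.52 without the first dexamethasone array. The regulators Srebf1 (0.04 ± 0.21) and Mlxipl (0.14 ± 0.15), both named after their values were seen, were close to zero, and cholesterol synthesis was nearer to the background, with 17 of 24 genes lower and a median of -0.20, which ran from -0.09 without the first combination array and -0.10 without the second dexamethasone array to -0.34 without the first dexamethasone array and -0.37 without the second combination array. The stretch before Fasn, at chr11:120824548-120824797 on the minus strand of GRCm38.p6, is printed because CCAAT, here in capitals on either strand, stands in it 3 times, with 2 of the matches overlapping.
Fasn: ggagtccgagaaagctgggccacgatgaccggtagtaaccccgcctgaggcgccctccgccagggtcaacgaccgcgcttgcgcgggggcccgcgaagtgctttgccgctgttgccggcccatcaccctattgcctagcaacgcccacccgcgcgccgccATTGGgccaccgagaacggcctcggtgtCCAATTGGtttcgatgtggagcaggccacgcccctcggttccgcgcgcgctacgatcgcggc
CCAAT stood in 8 of the 15 listed promoters of this list (53.3%), beside the 34.5% of all promoters given above. The phase I enzymes, which were mostly higher, had CCAAT in 20 of 41 (48.8%) and TTTGAA in 10 of 41 (24.4%), so a share above that of all promoters was not limited to lists with lower values.

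Most fat cell genes were lower too. Adipoq, the hormone made only by adipocytes, read 687 and 444 with dexamethasone and 229.9 and 129 with the combination (-1.61 ± 0.29, adjusted p = 0.1239), Fabp4 read 1525 and 1196 against 693 and 441, and Plin4, a coat protein of lipid droplets, 321 and 194 against 125 and 97.6. All 3 were lower in both combination arrays. Pck1, the enzyme that feeds glyceroneogenesis, was higher in both, at 947 and 969 against 1336 and 1291. Of 14 adipose genes tested 11 were lower, 9 of them without overlap, and 3 were higher without overlap. Over all genes 28.7% were lower and 16.3% higher without overlap. Scd1 and Lpl were past the threshold, where 0.0441% of all probe sets fell. The median was -1.11 (-0.80 without the first dexamethasone array). The summed signal of the 17 adipose markers measured was 11533 and 9999.7 with dexamethasone and 6495 and 4999 with the combination, which includes Scd1 and Lpl themselves. Without both it was 8188 and 6310.2 against 5645 and 4519, so the other adipose markers moved with the lower values of Scd1, Scd2, Lpl and Fasn, and their part in these was not tested.

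Antimicrobial genes of the epithelium were lower for 14 of 17 tested, 9 of them at an unadjusted p under 0.05 (7.34% of all genes were lower at that p) and none past the threshold, with a median of -0.71 that was -0.53 without the first dexamethasone array. Reg3b, a lectin that binds bacterial walls, read 6833 and 2667 with dexamethasone and 726 and 826 with the combination (-2.44 ± 0.37, adjusted p = 0.08316), and its second probe set gave -1.93 (adjusted p = 0.06815). Reg3g, its close relative, read 4746 and 1191 against 270.0 and 465. Both were highest in the first dexamethasone array, and the second still exceeded both combination arrays. Pglyrp1, which kills bacteria through their peptidoglycan, had close replicates at 464 and 538 against 195 and 253 (-1.13 ± 0.19, adjusted p = 0.09902). Reg3a went the other way at 651 and 645 against 1072 and 1253. In a list of epithelial oxidant genes made after the values were seen, Noxo1, the organiser of the oxidase Nox1, read 489 and 388 against 184 and 194, and Cyba, its membrane subunit, 486 and 507 against 229 and 251 (adjusted p = 0.0832 for both), while Gpx2, Rac2 and Rac1 were at -0.29, -0.38 and 0.12.

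Of 8 B and plasma cell genes tested 6 were higher and none passed. Igha, the heavy chain of IgA, read 2559.6 and 3199 with dexamethasone and 6779 and 5983 with the combination (1.15 ± 0.20, adjusted p = 0.1077), and its other probe sets were at 0.78 and 1.39. Jchain, which joins IgA dimers, read 691 and 955 against 1751 and 1330.3 (0.90 ± 0.21). Pou2af1 and Prdm1, factors of B and plasma cells, were at 0.80 and 0.63, Sdc1 went against them at -0.57 and is also made by epithelium, Derl3 and Xbp1, which serve protein secretion, were at 0.25 and 0.03 (with -0.01 in another Xbp1 probe set), and Ighm, highest in the first dexamethasone array, was at -0.09 ± 0.64 (0.31 in its other probe set). Over 8 genes the median was 0.44, and 0.027 when the filter kept only brighter probe sets. The T cell list had a median of 0.01 over 10 genes, from 0.41 for Gimap4 and 0.25 for Id2 through Ccl5, Cd160, Zap70, Gzmb, Gimap3 and Thy1 to -0.21 for Gzma and -0.21 for Cd7, and the macrophage list of -0.06 over 18. Interferon genes had one of -0.07 over 31, with Irf7, the factor that amplifies the response, at 640.3 and 488 against 313 and 338 (-0.76 ± 0.18).

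The glucocorticoid response, present in both groups by design, split evenly as a list: 21 of 43 tested genes were higher and 22 lower, with a median of -0.03. Beside Pdk4, Tsc22d3 (GILZ), a direct target of the receptor, read 405 and 727 with dexamethasone and 1254 and 1068 with the combination (1.07 ± 0.26, adjusted p = 0.2304), and Sgk1, a kinase that regulates sodium channels, 1768 and 2489 against 4505 and 3850.1 (0.99 ± 0.21). The metallothionein Mt1 was at 0.86 ± 0.24. Fkbp5, an equally well known target, overlapped at 449 and 224 against 346 and 197, with replicates 2.01-fold apart and 0.16 from a second probe set, and Hsd11b2, which inactivates corticosterone, was at -1.68 ± 0.42 and highest in the first dexamethasone array. The receptor gene Nr3c1 read 1036 and 1145 against 1390.0 and 1343. In the clock list Dbp (-0.62 ± 0.16) and Nr1d1 (-0.52 ± 0.18) were lower and Arntl (0.97 ± 0.31) and Cry1 (0.61 ± 0.19) higher. None of these passed, and the hour of collection is not labelled.

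Other genes with the smallest p of their lists did not pass. Max, the partner of Myc, read 81.2 and 198 against 509 and 447 (1.80 ± 0.34, adjusted p = 0.1326), with unequal dexamethasone arrays. It went against its list of ribosome biogenesis and Myc network genes, in which 27 of 35 were lower with a median of -0.17. Hnf4g, an enterocyte nuclear receptor, read 195 and 301 against 617 and 456 by its brightest probe set (1.09 ± 0.24), while a second overlapped between groups at 0.39. Hif1a, the oxygen-regulated factor, was 937 and 920.4 against 1588 and 1585 (0.76 ± 0.15), with 0.32 and 0.28 from its other probe sets. Casp6, an executioner caspase, read 482 and 257 against 919.7 and 689.7, in a list of 29 apoptosis genes with a median of 0.11. Endoplasmic reticulum chaperones (median -0.07 over 50), heat shock genes (-0.00 over 23) and immediate early genes (-0.10 over 28) were near the median of all genes.

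Smooth muscle and matrix genes were lower in most cases, 20 of 23 and 30 of 36, with medians of -0.26 and -0.22. The first dexamethasone array was the highest in both lists, and without it the medians were 0.00 and -0.05. Endothelial genes had a median of 0.06 over 14.

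The array of DBZ alone, the only distinct one because its 2 columns were identical in 22684 of 22690 probe sets, is set beside the others as a value. It took no part in the main fit, and entered only the refits over all distinct arrays and with this array added. It differs from the dexamethasone arrays in both drugs, so nearness to the combination does not show an effect of DBZ alone. Of the 11 genes with 1 symbol past the threshold, the DBZ array was nearer to the combination in 7. Pdk4 read 1248 there, Cyp2b10 4276, Gip 1057, Lpl 247 and Mptx1 53, each nearer to the combination values given above or beyond them. Aadac (691), Neu1 (895) and the beta-globin probe set (634) were close to the dexamethasone values. Fabp6, at 11866 in the DBZ array, was above both dexamethasone values (3324 and 10013) and both combination values (1189.8 and 1116). Top2a, at 143, was as low as in the first combination array. With 1 array these are values with no replicate.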

How the data were processed

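Total RNA of small intestine was hybridised to 1-colour Affymetrix arrays. The intensity values are probe set signals as deposited by the authors, made with MAS5 per the submitters' processing notes, with no version stated. Both columns of each group came from the deposited series table. The arrays were brought to one trimmed mean, 250, after dropping 2% of values at each end, and log2 was taken after adding 11.99, the 20th percentile of the 4 arrays. Control probe sets and those averaging less than 38.61, the 40th percentile, did not enter the fit. The comparison was fitted on the 4 arrays with limma 3.58.1 in R 4.3.3 (lmFit, eBayes with an intensity trend, residual df 2, prior df 6.083) with Benjamini-Hochberg adjustment over 13599 probe sets at a threshold of 0.05. The vehicle arrays did not enter it. The script was tested on simulated data.

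Of the probe sets 20393 have 1 gene symbol in the platform table, 691 have several and are not named as a gene, and 1606 are unlisted there. A gene was represented by its brightest probe set. A depth does not apply to arrays, and 2 arrays per group limit the precision. The gene lists and members were chosen with earlier results of these data known. Named were all genes past the threshold, a stated list of genes (of which 1 is not reported here), the ileum and colon lists, and, in the lists described, some of the 8 members with the smallest p or any member of a list of at most 10. The last step left room to choose which of them to name, with values in view. Then 2 lists, fatty acid synthesis and epithelial oxidants, were added after values were seen. Promoters are RefSeq sequences in GRCm38.p6. The alternatives tried were other scalings, added constants, filters, fits, sets of arrays and leaving out each array.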

Additional observations from a re-analysis of the deposited data

How the results depend on the processing

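The calls depended on the fit of the spread, the filter, the probe sets kept and the arrays used. No filter gave 2 higher and 0 lower probe sets, no intensity trend 0 and 0, robust fitting 27 and 16, all distinct arrays 3 and 1, and leaving out cross-hybridising probe sets 3 and 6. Leaving out each array in turn gave 0 to 98 higher and 0 to 220 lower probe sets, and 885 to 1786 at an unadjusted p under 0.05. With 1 array left in a group, it is assumed to vary like the other group. A replicate block gave 61 higher and 57 lower, but same-numbered arrays share only a number (correlation of deviations 0.1078). Over all settings tried, the 17 called probe sets kept their sign and were past the threshold in 197 refits and short of it in 84.

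List medians moved by less than the spread between replicates in 867 refits, by more in 97, and by more with a change of sign in another 3. Changes of sign were counted apart only for a chosen part of the lists. Those of the other lists, such as liver, are among the 97. Without any filter they were -0.28 for Paneth cells, -0.74 for adipose tissue, 0.24 for B and plasma cells and 0.27 for phase I enzymes. With a stricter filter, at the 60th percentile, they were 0.027 for B and plasma cells and -0.29 for Notch targets, and without cross-hybridising probe sets 0.56 for the proximal small intestine. Leaving out each array gave medians of -1.43 to -0.80 for adipose tissue, 0.31 to 0.46 for phase I enzymes, 0.26 to 0.52 for lipid absorption, 0.47 to 0.58 for the proximal small intestine, -0.67 to -0.18 for DNA replication, -0.51 to -0.24 for goblet, -1.03 to -0.34 for Paneth and -0.58 to -0.28 for stem cells. The ileum median ran from -0.39 to 0.13 and turned positive without the second dexamethasone or the first combination array. The enteroendocrine median ran from -0.35 to 0.10 and turned positive without the first dexamethasone or the second combination array. The cause was not tested. Signals near the added constant, such as those of Cyp2c29 and H2bc22 with dexamethasone, limit what folds of dim genes show.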
